A study of Homo sapiens with 9 samples.

Results

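The E2F and RB family genes are transcription factors, and the proteins that hold them in check, at the point where a cell commits to DNA replication. The members described here are the activators E2F1, E2F2 and E2F3, the repressors E2F4, E2F5 and E2F6, the atypical members E2F7 and E2F8, and the RB proteins RB1 and RBL1. They were taken by symbol, as every probe set that the platform's probe table assigns to 1 of these symbols alone. This rule uses no measured value, but the members were chosen with earlier results of these data known. The rule gave 10 of the 19775 genes and 21 of the 41097 single-gene probe sets in that table. A gene or probe set was tested if its signal was above the median of its array on at least 3 arrays, and all 10 genes and 18 of their 21 probe sets passed.

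The arrays came from U87 cells, an established human glioma line, collected 72 h after transfection with 50 nM of a microRNA duplex. There were 3 arrays for miR-376a*A, the unedited form of the microRNA, 3 for miR-376a*G, the edited form, and 3 for a control duplex, and Lipofectamine RNAiMAX carried the duplex into the cells in every group. The labels call the replicates biological but do not say whether they were separate cultures, so the p-values measure the spread between these 9 arrays. RNA came from whole cultures of 1 line, in which a smaller share of cells in a phase of the cell cycle and less RNA per cell cannot be told apart.

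Activator E2Fs bind DNA together with a DP partner and switch on genes for nucleotide synthesis, replication origins and the S phase cyclins. In resting cells RB1 covers their activation domain, and cyclin-dependent kinases release it by phosphorylating RB1. E2F4 and E2F5 act mainly with the RB relatives RBL1 and RBL2 to keep these genes off, E2F6 represses through Polycomb proteins without any RB protein, and E2F7 and E2F8 bind DNA without a DP partner and repress E2F targets. Loss of the CDKN2A inhibitor of CDK4 and CDK6 is common in glioma, and U87 is known to lack that locus.

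Short sequences of the microRNA and of the members' promoters are shown as background, and their part in the values was not tested. The mature reference form of the microRNA, hsa-miR-376a-5p (older name miR-376a*), lies at chr14:101040788-101040809 on the plus strand of GRCh38.p14 in RefSeq. RefSeq also lists hsa-miR-376a-2-5p, from a neighbouring precursor, at chr14:101040080-101040100 on the same strand. They are shown because a microRNA selects its targets mainly by the seed, bases 2 to 8, which is in capitals and differs between them.
hsa-miR-376a-5p: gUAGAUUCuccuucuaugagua
hsa-miR-376a-2-5p: gGUAGAUUuuccuucuauggu
Editing turns an adenosine of the precursor into inosine, which pairs like guanosine. No source used here spells out the transfected duplexes, so the edited form is not printed and which reference form the duplexes follow is not given here.

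E2F proteins bind short words that start with TTT and end in GC-rich bases. RefSeq promoter windows of GRCh38.p14, from 250 bases before to 50 bases after the start site, were matched for 8 of the 10 members, all but E2F5 and E2F8, and searched on both strands for the words TTTCCCGC, TTTCGCGC, TTTGCCGC and TTTGGCGC. A relaxed search also took the same words with G as the last base, TTTCCCGG, TTTCGCGG, TTTGCCGG and TTTGGCGG. Of 35116 windows of this length, 3.31% held a word of the strict set and 6.19% a word of the relaxed set. The 75 bases just before the start site are shown for the 4 members with a strict match, read along the strand of the gene, with the matched words in capitals.
E2F1, chr20:33686386-33686460, minus strand: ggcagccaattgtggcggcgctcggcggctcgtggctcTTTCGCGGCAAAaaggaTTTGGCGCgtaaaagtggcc
E2F2, chr1:23531234-23531308, minus strand: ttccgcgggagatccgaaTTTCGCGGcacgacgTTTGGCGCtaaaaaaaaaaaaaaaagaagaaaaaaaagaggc
E2F3, chr6:20401804-20401878, plus strand: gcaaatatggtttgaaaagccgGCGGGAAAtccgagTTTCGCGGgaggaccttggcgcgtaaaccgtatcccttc
RBL1, chr20:37095998-37096072, minus strand: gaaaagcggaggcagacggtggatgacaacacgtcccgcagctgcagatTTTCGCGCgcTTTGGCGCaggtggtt
In E2F1 the run of 12 capitals holds TTTCGCGG and, on the other strand, an overlapping TTTGCCGC. In E2F3 the earlier run of capitals is TTTCCCGC read on the other strand, and its other listed window held no match. The E2F6 window held TTTCCCGG at 2 places and no strict word, and the E2F4 and E2F7 windows held neither set. The listed RB1 window, which lies inside the gene, held neither and is not shown. A match describes the letters only, and the words were chosen after the promoters were seen.

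Before the members are described, 2 arrays need naming. Over tested genes, Pearson's r on the log2 scale was 0.982 to 0.990 between the array labelled miR-376a*A replicate 1 and control replicates 2 and 3, and between the array labelled control replicate 1 and miR-376a*A replicates 2 and 3. With arrays of their own label, both were at 0.925 to 0.935. The labels were kept. Values below use all 9 arrays unless 7 are named, which leave out these 2. They were left out for their expression values, which brings the arrays of a label closer together. The 7-array p-values and counts therefore follow a choice made on these same data and are given as a description. Hybridisation controls averaged 7.82 to 7.92 (log2) on the miR-376a*A arrays, 7.12 to 7.29 on the miR-376a*G arrays and 7.51 to 7.70 on the control arrays. GAPDH signal at its 3′ over its 5′ probe set, in log2, was -0.17 to -0.10 with miR-376a*A, -0.19 to -0.14 with miR-376a*G and -0.12 to -0.08 with control. The part of these differences in the results was not tested. All 8 glioma and mesenchymal markers, among them VIM, CD44 and NES, passed the filter. Among markers with a single-gene probe set, 3 of 5 neuronal, 1 of 4 oligodendrocyte and 2 of 5 endothelial ones passed. So did 1 of 4 leukocyte and 1 of 5 epithelial markers. The neuronal, oligodendrocyte and leukocyte lists also hold entries without such a probe set. The summed signal of the glioma and mesenchymal list was 14322 to 19209 with miR-376a*A, 11308 to 12337 with miR-376a*G and 12947 to 16020 with control. The neuronal list summed to 902 to 2184 with miR-376a*A, 345 to 362 with miR-376a*G and 858 to 1903 with control. Both lists were thus lowest on the miR-376a*G arrays, without overlap. The epithelial list was highest there, at 54.8 to 75.2 with miR-376a*A, 78.4 to 97.2 with miR-376a*G and 51.4 to 64.9 with control. The leukocyte list read 22.3 to 52.7, 42.4 to 55.5 and 21.2 to 41.5 in the same order of groups, the oligodendrocyte list 66.7 to 81.3, 62.3 to 96.9 and 62.0 to 79.7, and the endothelial list 83.7 to 165.7, 144.6 to 217 and 77.3 to 199.7. The part of these levels in the results was not tested. Of the probe sets of CDKN2A, 209644_x_at read 15.8 to 42.9 over the 9 arrays and the others at most 8.52, and no MTAP probe set, from the neighbouring gene, passed 32.7; the lowest array median was 18.0.

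**Figure D1:**
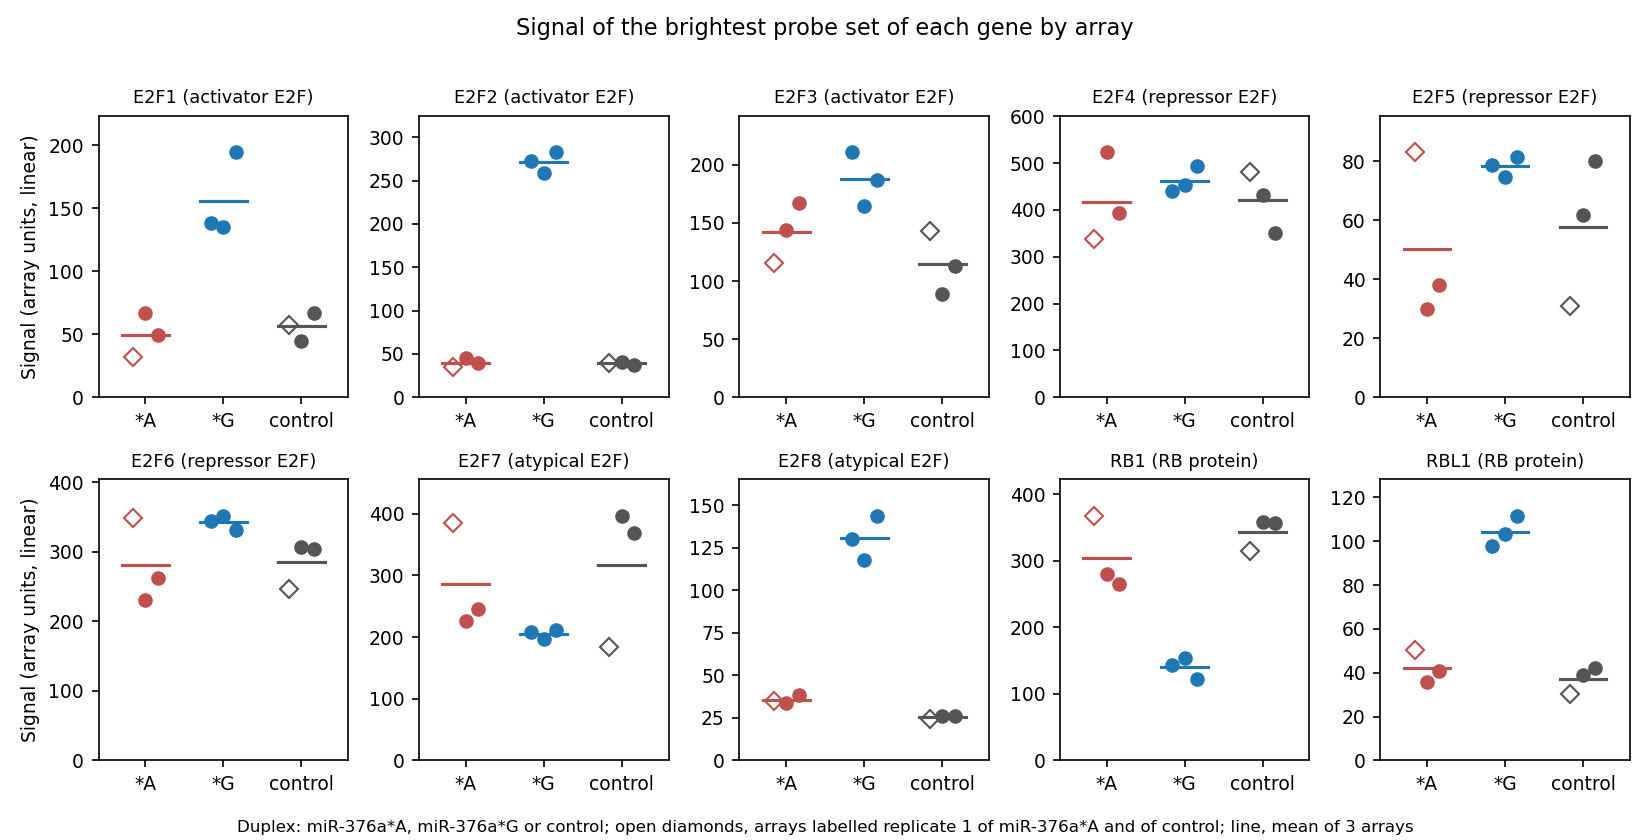
Signal of the brightest probe set of each member (vertical axis, linear array units from 0) on every array, in the order miR-376a*A, miR-376a*G and control; lines are means of 3 arrays and open diamonds mark replicate 1 of the miR-376a*A label and of the control label. E2F2 read 258 to 283 on the miR-376a*G arrays and 35.1 to 45.3 on all others, while RB1 read 123 to 154 with miR-376a*G and 264 to 368 on all others.

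The edited form was compared with the control duplex to ask which transcripts differ after transfection of miR-376a*G. With miR-376a*G, 5 members rose, 1 fell and 4 did not pass the test. E2F1, E2F2, E2F3, E2F8 and RBL1 were higher and RB1 was lower. All 3 activators rose, no repressor passed, E2F8 but not E2F7 rose among the atypical members, and the 2 RB proteins moved in opposite directions. The median log2 difference was 1.45 for the activators, 0.27 for the repressors, 0.63 over the 10 members and 0.12 over all 12587 tested genes. In this comparison 33.4% of all tested genes were called, 18% higher and 15.4% lower, by limma with a Benjamini-Hochberg adjusted p under 0.05. On 7 arrays 5 members rose and 2 fell, RB1 and E2F7, where 56.1% of all genes were called.

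Among the activators E2F2 moved farthest. E2F2 signal was 273, 258 and 283 on miR-376a*G arrays, against 39.1, 40.4 and 37.2 on control arrays. The groups lay far apart, and the arrays of each were close together. The log2 difference, taken on log2(signal + 1) as are all differences here, was 2.77 ± 0.14 (SE), a 6.82-fold increase (limma adjusted p = 6.73e-06), and it was 2.77 on 7 arrays.

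E2F1, the founding member of the family, read 138, 135 and 194 on miR-376a*G arrays and 57.2, 44.4 and 67.1 on control arrays. Replicate 3 was the highest array of both groups, and no array of a group reached the other. The log2 difference was 1.45 ± 0.28 (SE; limma adjusted p = 0.00412), a 2.74-fold increase, and 1.47 on 7 arrays.

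E2F3, the activator most tied to proliferation in mouse cells, differed least of the activators. Its signal was 211, 164 and 187 on miR-376a*G arrays, against 143, 88.8 and 113 on control arrays. The lowest miR-376a*G array and the control replicate 1 array were close, though the groups did not overlap. The log2 difference was 0.72 ± 0.21 (SE; limma adjusted p = 0.0254) and 0.89 on 7 arrays (adjusted p = 0.000327). The call rested on single arrays: the limma adjusted p was 0.0955 without miR-376a*G replicate 1, 0.074 without miR-376a*G replicate 3, 0.0877 without control replicate 2 and 0.0647 without control replicate 3. It was also lost with each array centred on its median, at a difference of 0.49 (adjusted p = 0.063), and with replicate number added to the model.

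None of the repressors passed the test between miR-376a*G and control on the deposited scale. Scaling to hybridisation controls brought calls for E2F4 at 0.54 and E2F6 at 0.67, beside a median of all genes of 0.51. Scaling to poly-A controls also brought a call for E2F6, beside a median of all genes of 0.40. E2F4, the most abundant E2F protein of resting cells, read 439.9, 453 and 494 on miR-376a*G arrays and 480.1, 433 and 351 on control arrays. These ranges overlapped. The log2 difference was 0.14 with a 95% interval of -0.26 to 0.54 (limma adjusted p = 0.559), and 0.24 on 7 arrays (adjusted p = 0.129).

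E2F5, which also acts with RBL1 and RBL2, read 78.8, 74.5 and 81.4 on miR-376a*G arrays and 31.0, 61.9 and 80.0 on control arrays. The control arrays were spread widely, with replicate 1 lowest, and the groups overlapped. The difference was 0.54 (95% interval -0.40 to 1.47, limma adjusted p = 0.348), and 0.15 on 7 arrays.

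E2F6 signal was 344, 352 and 331 on miR-376a*G arrays, against 247, 306 and 305 on control arrays. All miR-376a*G arrays were above all control arrays, but by little. The log2 difference of 0.27 ± 0.16 (SE) did not pass (limma adjusted p = 0.243), nor did 0.16 on 7 arrays.

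The atypical members did not move alike. E2F8 signal was 130.1, 118 and 144 on miR-376a*G arrays, against 24.7, 25.9 and 26.0 on control arrays. Its control arrays were close together and well below the miR-376a*G arrays. The increase was 4.95-fold, a log2 difference of 2.31 ± 0.14 (SE; limma adjusted p = 1.29e-05), and 2.28 on 7 arrays.

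E2F7, the partner of E2F8 in repressing E2F targets, read 208, 197 and 212 on miR-376a*G arrays and 185, 397 and 369 on control arrays. The control array labelled replicate 1 was below every miR-376a*G array and the other control arrays were above them. The log2 difference was -0.54 ± 0.30 (SE; limma adjusted p = 0.193) with 9 arrays. Without the 2 arrays that stand apart it was -0.89 ± 0.09 and passed (adjusted p = 1.03e-05), as it did without control replicate 1 alone (adjusted p = 0.0129). Whether the change of E2F7 differs from that of E2F8 was not tested.

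The RB proteins had clear and opposite changes. RB1, the retinoblastoma tumour suppressor, read 143, 154 and 123 on miR-376a*G arrays and 314, 359 and 357 on control arrays. Every miR-376a*G array was below every control array. RB1 was 2.45-fold lower, a log2 difference of -1.29 ± 0.16 (SE; limma adjusted p = 0.000347), and -1.35 on 7 arrays. Scaling to hybridisation controls, which raised the median of all genes to 0.51, left RB1 at -0.89 (adjusted p = 0.00265).

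RBL1, the RB relative whose own gene is a known E2F target, read 97.9, 103 and 112 on miR-376a*G arrays and 30.3, 39.1 and 42.2 on control arrays. The groups were well apart. The log2 difference was 1.47 ± 0.18 (SE; limma adjusted p = 0.000412), a 2.78-fold increase, and 1.34 on 7 arrays. By ranges alone, 6 members lay above control on every miR-376a*G array, RB1 lay below on every one, and 3 overlapped, while 53.4% of all tested genes did not overlap in this comparison.

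**Figure D2:**
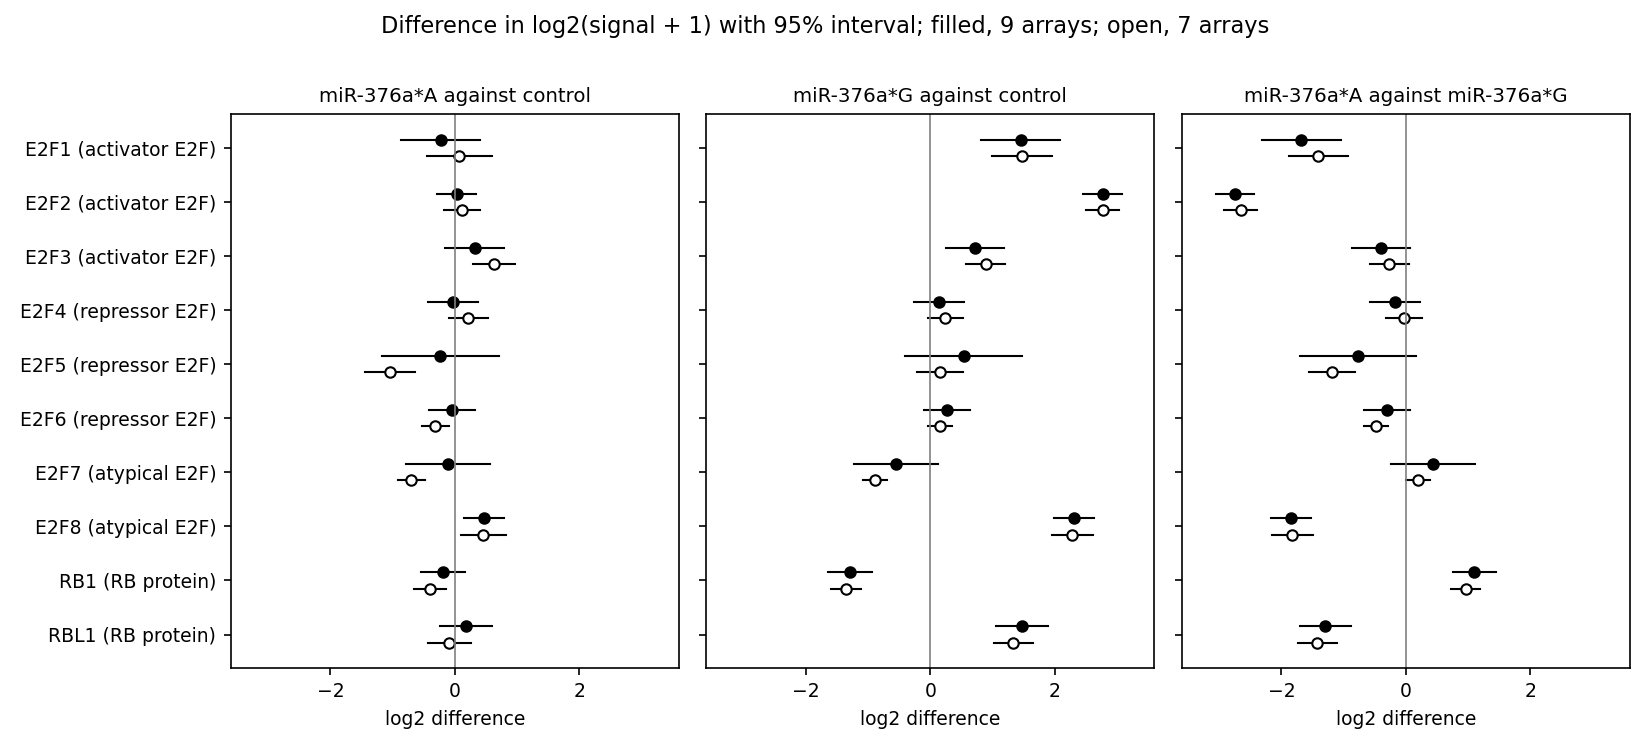
Log2 difference (horizontal axis) of each member in each comparison with its 95% interval; filled points use all 9 arrays and open points 7 arrays. With miR-376a*G against control, E2F1, E2F2, E2F3, E2F8 and RBL1 lie right of 0 and RB1 left of 0 in both fits; with miR-376a*A against control the 9-array differences lie between -0.23 and 0.46.

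The several probe sets of a gene can read different transcripts, so each was also tested as its own row. In miR-376a*G against control 9 of the 18 tested probe sets rose and 2 fell, where 32.3% of all 24316 tested probe sets were called. On 7 arrays 11 rose and 3 fell. The share of all probe sets called on 7 arrays is not given here, and over all genes it was 56.1%. Both probe sets of E2F1, of E2F3 and of RB1 were called in the direction given above. For RB1 the dimmer set 211540_s_at read 30.4, 20.4 and 26.1 on miR-376a*G arrays, against 50.4, 51.5 and 48.4 on control arrays, a log2 difference of -0.95 (limma adjusted p = 0.00752). For E2F2 the dimmer tested set, 235582_at, read 45.9, 34.5 and 45.0 on miR-376a*G arrays, against 13.4, 16.6 and 10.2 on control arrays, a difference of 1.58. That is a smaller difference than at the brighter set, in the same direction.

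Probe sets of RBL1 and E2F7 did not all give the same call. For RBL1, 1559307_s_at rose by 1.64, while 205296_at, at 53.9, 73.4 and 61.6 with miR-376a*G and 28.7, 39.6 and 40.5 with control, missed the threshold at 0.79 (limma adjusted p = 0.0621). For E2F7, 241725_at read 85.7, 62.8 and 67.8 with miR-376a*G and 78.2, 68.8 and 62.4 with control, a difference of 0.04 beside -0.54 at the brighter set. On 7 arrays 241725_at differed by 0.12 and was not called, while the brighter set was. For E2F4, the dimmer set 202248_at differed by 0.36 with 9 arrays (limma adjusted p = 0.291). On 7 arrays it was called at 0.54 (adjusted p = 0.0232), while the brighter set was not. The 3 probe sets under the filter were given no test. They were 207042_at of E2F2, at 10.8 to 18.4 with miR-376a*G and 0.83 to 4.61 with control, 222051_s_at of E2F5, at 17.0 to 20.1 with miR-376a*G and 9.52 to 14.3 with control, and 1555003_at of RBL1, at 20.6 to 23.5 with miR-376a*G and 6.60 to 7.98 with control.

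**Figure D3:**
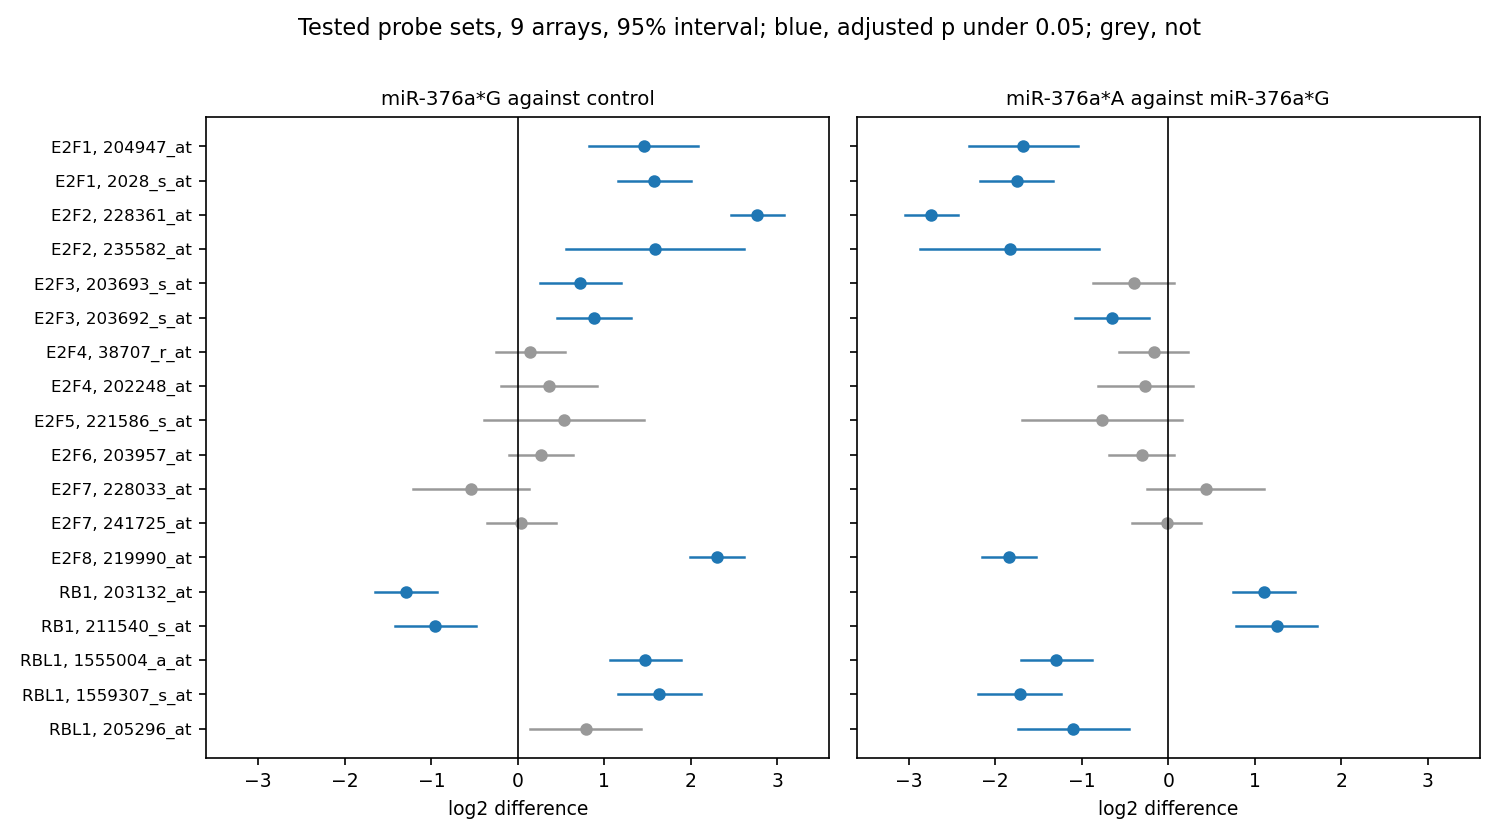
Log2 difference (horizontal axis) with 95% interval for the 18 tested probe sets of the members, 9 arrays, in miR-376a*G against control (left) and miR-376a*A against miR-376a*G (right); blue marks an adjusted p under 0.05. Both RB1 probe sets lie left of 0 when miR-376a*G is set against control and right of 0 between the forms, and neither E2F4 nor E2F7 probe set is called.

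The unedited form was compared with the control duplex to ask which transcripts differ after transfection of miR-376a*A. With 9 arrays no member was called, nor any of the 18 probe sets, and limma called 0% of all tested genes and 0% of all tested probe sets, with 463 genes at an unadjusted p under 0.05. E2F8 was the member farthest from 0. It read 34.7, 34.0 and 38.2 on miR-376a*A arrays, against 24.7, 25.9 and 26.0 on control arrays. It was the only member with no overlap, against 6.15% of all tested genes, and its log2 difference of 0.46 ± 0.14 (SE) had an unadjusted limma p of 0.00948 and an adjusted p of 0.886.

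For most members the array labelled replicate 1 in each group read nearer the other label. E2F7 was 386, 225 and 246 on miR-376a*A arrays 1, 2 and 3, against 185, 397 and 369 on control arrays 1, 2 and 3. In E2F7 the array labelled miR-376a*A replicate 1 was as high as control replicates 2 and 3, and the array labelled control replicate 1 was the lowest. E2F5 showed the same layout at 83.0, 29.7 and 38.1 with miR-376a*A and 31.0, 61.9 and 80.0 with control. By distance to the mean of the other arrays, 7 of the 10 members had both arrays nearer the other label, as did 63.8% of all tested genes; E2F2, E2F8 and RB1 did not.

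Without these 2 arrays, 41.9% of all genes were called between miR-376a*A and control, and 6 members were among them. E2F3 was higher by 0.63 and E2F8 by 0.46 on the log2 scale, with limma adjusted p of 0.00767 and 0.0442. E2F5 was lower at -1.04 (adjusted p = 0.00104), E2F6 at -0.31 (0.0231), E2F7 at -0.70 (0.000211) and RB1 at -0.39 (0.02). The 7-array fit has 2 arrays in each of these groups and assumes that they vary as the miR-376a*G arrays do. Since the arrays were left out by their values, its p-values do not test these differences independently. At their brightest probe sets E2F1, E2F2, E2F4 and RBL1 were not called in either fit, with 7-array differences of 0.07, 0.12, 0.22 and -0.08. RB1 gave different values by probe set, since 211540_s_at differed by 0.20 on 7 arrays and was not called. So did E2F7, whose 241725_at differed by 0.02 on 7 arrays (limma adjusted p = 0.945). For RBL1 on 7 arrays, 205296_at was called at -0.72 (adjusted p = 0.0393), while 1559307_s_at, at -0.15, was not.

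The unedited and edited forms were also set against each other. With miR-376a*A, 1 member was higher than with miR-376a*G, RB1, and 4 were lower, E2F1, E2F2, E2F8 and RBL1. In this comparison 38.2% of all tested genes were called, 16.4% higher and 21.8% lower, and the median difference was -0.58 over the members and -0.14 over all genes. It shares the miR-376a*G arrays with the comparison above, so the values are set side by side and no overlap is drawn from them.

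E2F1 read 31.9, 66.7 and 49.4 on miR-376a*A arrays and 138, 135 and 194 on miR-376a*G arrays, a log2 difference of -1.68 ± 0.28 (SE; limma adjusted p = 0.00177). E2F2 read 35.1, 45.3 and 39.3 on miR-376a*A arrays and 273, 258 and 283 on miR-376a*G arrays, a difference of -2.74 ± 0.14 (adjusted p = 6.71e-06). Neither activator had overlapping groups, nor did 53.5% of all tested genes, and on 7 arrays the differences were -1.40 and -2.65. E2F3 overlapped, at 116, 144 and 167 with miR-376a*A and 211, 164 and 187 with miR-376a*G, and its -0.40 was not called (adjusted p = 0.155), nor was -0.26 on 7 arrays. Its dimmer probe set 203692_s_at was lower at -0.65 and passed (adjusted p = 0.0254).

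The repressors and E2F7 did not pass with 9 arrays on the deposited scale. E2F4 differed by -0.17, E2F5 by -0.77, E2F6 by -0.31 and E2F7 by 0.43. Their 95% intervals all held 0. E2F5 and E2F6 passed on 7 arrays, at -1.19 (limma adjusted p = 0.000104) and -0.47 (0.000709), and also without miR-376a*A replicate 1 alone (0.0207 and 0.0208). E2F4 and E2F7 did not pass on 7 arrays, at -0.03 and 0.20. When the 9 arrays were scaled to hybridisation controls, E2F4 was called at -0.84, E2F5 at -1.44 and E2F6 at -0.98. The median of all genes was -0.81 there. E2F7 changed sign to -0.24 with that scaling and was not called.

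E2F8 read 34.7, 34.0 and 38.2 on miR-376a*A arrays and 130.1, 118 and 144 on miR-376a*G arrays, 3.59-fold lower with miR-376a*A (log2 difference -1.84, limma adjusted p = 3.26e-05). RBL1 read 50.2, 35.8 and 41.0 with miR-376a*A and 97.9, 103 and 112 with miR-376a*G, 2.45-fold lower (-1.29, adjusted p = 0.000728). RB1 read 368, 280.1 and 264 with miR-376a*A and 143, 154 and 123 with miR-376a*G, 2.15-fold higher (1.10, adjusted p = 0.000708). None of these 3 genes overlapped between the forms, and on 7 arrays their differences were -1.82, -1.42 and 0.96. By ranges alone, RB1 and E2F7 lay above miR-376a*G on every miR-376a*A array, 4 members lay below and 4 overlapped. Of all tested genes, 53.5% did not overlap in this comparison. Scaling to hybridisation controls brought RB1 between the forms to 0.44 (limma adjusted p = 0.0463). By probe set, 2 were higher and 9 lower of 18, where 36.1% of all probe sets were called, and on 7 arrays 1 member was higher and 6 lower, where 59.6% of all genes were called.

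Other genes of the pathway were counted by lists, with no test of a list. Of all tested genes, 33.4% were called with miR-376a*G against control, 38.2% between the forms and 0% with miR-376a*A against control. On 7 arrays these shares were 56.1%, 59.6% and 41.9%, to be read beside every count below. In the list of known E2F targets, which holds genes of DNA replication, the cell cycle, DNA repair and chromatin, 30 were tested. With miR-376a*G against control 27 rose and 0 fell, at a median log2 difference of 1.70 against 0.12 over all genes, and on 7 arrays 29 rose and 0 fell. RRM2, the small subunit of ribonucleotide reductase, averaged 2059 ± 187 with miR-376a*G and 729 ± 22.0 with control (SD, n = 3 each; difference 1.49, limma adjusted p = 1.05e-05). CDT1, which loads the replicative helicase, averaged 441 ± 40.8 with miR-376a*G and 91.4 ± 11.2 with control (SD, n = 3 each; difference 2.26). GINS2, part of the GINS complex of the active helicase, rose by 2.33, and CDC6, which acts with CDT1, by 2.20. MCM3, GINS1 and CHEK1, named after their values were seen as the tested targets without a call, differed by 0.49, 1.28 and -0.18. Between the forms, 27 targets were lower with miR-376a*A than with miR-376a*G and 0 higher (median -1.80), and on 7 arrays 28 were lower and 1 higher. With miR-376a*A against control 0 of 30 were called. On 7 arrays 7 were higher and 7 lower, where 41.9% of all genes were called. Promoter windows of these list genes held a strict E2F word in 43.9% of 41 windows.

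The kinases that act on RB proteins, with their cyclins and inhibitors, moved less uniformly. Of 11 tested genes 4 rose and 1 fell with miR-376a*G against control, at a median of 0.43, where 33.4% of all genes were called. These 5 calls became 3 without miR-376a*G replicate 2 or 3 and 10 on 7 arrays. The tested genes include CDKN2A, whose locus U87 is known to lack, read by the dim set 209644_x_at (15.8 to 42.9). It was not called with 9 arrays but is among the calls on 7, at 0.85 (limma adjusted p = 0.019). CDKN1B, an inhibitor of cyclin E and CDK2, averaged 335 ± 26.9 with miR-376a*G and 735 ± 37.7 with control (SD, n = 3 each; difference -1.13, limma adjusted p = 0.000262). CCNE1 and CCNE2, the E cyclins, rose by 1.37 and 1.79, and both are also in the target list. CDK2, their kinase, rose by 0.43 and CCND3, named after its values were seen as the remaining call, by 0.35. CDK4 and CDK6, chosen by their values, moved when the 2 arrays that stand apart were left out. CDK6 differed by 1.49 with 9 arrays (adjusted p = 0.0667) and 2.05 with 7 (3.09e-08), and CDK4 by 0.96 (0.0863) and 0.56 (0.000107). CDKN2C had no single-gene probe set here, and CCND2, CDKN1C and CDKN2B were under the filter. With miR-376a*A against miR-376a*G 1 was higher and 5 lower, against 2 and 2 with arrays centred on their medians and 4 and 6 on 7 arrays. Between miR-376a*A and control 0 were called with 9 arrays, and 4 were higher and 2 lower with 7.

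In the list of the third pocket protein, the MuvB core and its partners, 5 of 9 rose with miR-376a*G against control and 0 fell (median 0.67). Of all genes 33.4% were called there. MYBL2, an E2F target that joins MuvB in S phase, averaged 536 ± 75.7 with miR-376a*G and 104 ± 40.4 with control (SD, n = 3 each; difference 2.41, limma adjusted p = 0.000237). MYBL1, its relative, rose by 0.90, FOXM1, which drives the later G2 and M genes, by 1.48, the core subunit LIN9 by 1.08 and LIN52, the remaining call, by 0.67. RBL2, the RB relative of resting cells, differed by -0.49 and was not called (adjusted p = 0.141), and is named after its value was seen. Between the forms 1 of 9 was higher with miR-376a*A and 5 lower, in both fits. Between miR-376a*A and control 0 were called with 9 arrays, and 2 were higher and 0 lower with 7. On 7 arrays 5 rose and 1 fell with miR-376a*G against control.

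Of 8 tested chromatin regulators that bind RB proteins, 4 rose and 1 fell with miR-376a*G against control (median 0.31). The share over all genes was 33.4%. SUV39H1, a histone H3 lysine methyltransferase, rose by 1.65, DNMT1, the maintenance DNA methyltransferase, by 0.73, and the deacetylases HDAC2 and HDAC1 by 0.44 and 0.34, HDAC1 being named after its values were seen. ARID4B, a subunit of an HDAC complex, fell by 0.80. ARID4A had no single-gene probe set here. When arrays were centred on their medians, 2 of the 8 were called in place of 5. With miR-376a*A against miR-376a*G 1 was higher and 3 lower, a total that became 7 without miR-376a*A replicate 1 and on 7 arrays. Between miR-376a*A and control 0 were called with 9 arrays, and 1 was higher and 3 lower with 7.

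The Polycomb partners of E2F6 gave 3 higher and 1 lower of 10 tested (median 0.08) with miR-376a*G against control. This is near the 33.4% called over all genes. The split depended on the scaling, at 2 higher and 3 lower with arrays centred on their medians, 6 and 0 with hybridisation controls and 4 and 0 with poly-A controls. WDR5, PCGF6 and MGA rose by 1.00, 0.85 and 0.81, and the methyltransferase EHMT1 fell by 0.53. The 4 calls became 2 without miR-376a*G replicate 1, miR-376a*G replicate 2 or control replicate 1, 1 without miR-376a*G replicate 3 or control replicate 2, and 8 on 7 arrays, 4 in each direction. With miR-376a*A against miR-376a*G 0 were higher and 3 lower, but 0 were called without miR-376a*G replicate 2, 1 without miR-376a*G replicate 1 or 3, 6 without miR-376a*A replicate 1 and 9 on 7 arrays, and median centring gave 3 higher and 2 lower. Between miR-376a*A and control 0 were called with 9 arrays, and 3 were higher and 4 lower with 7. RNF2 had no single-gene probe set here and EHMT2 was under the filter. Of the DP partners, TFDP1 differed by 0.25 and TFDP2 by 0.46 with miR-376a*G against control and neither was called, while TFDP3 was under the filter. Neither was called in the other comparisons with 9 arrays. On 7 arrays TFDP1 rose by 0.37 with miR-376a*G against control (limma adjusted p = 0.0131). With miR-376a*A against control on 7 arrays TFDP1 rose by 0.60 (0.00195) and TFDP2 fell by 1.11 (4.64e-05), and between the forms 1 of the 2 was lower with miR-376a*A. When arrays were scaled to hybridisation controls, both were lower with miR-376a*A than with miR-376a*G, and no gene of any list was higher.

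**Figure D4:**
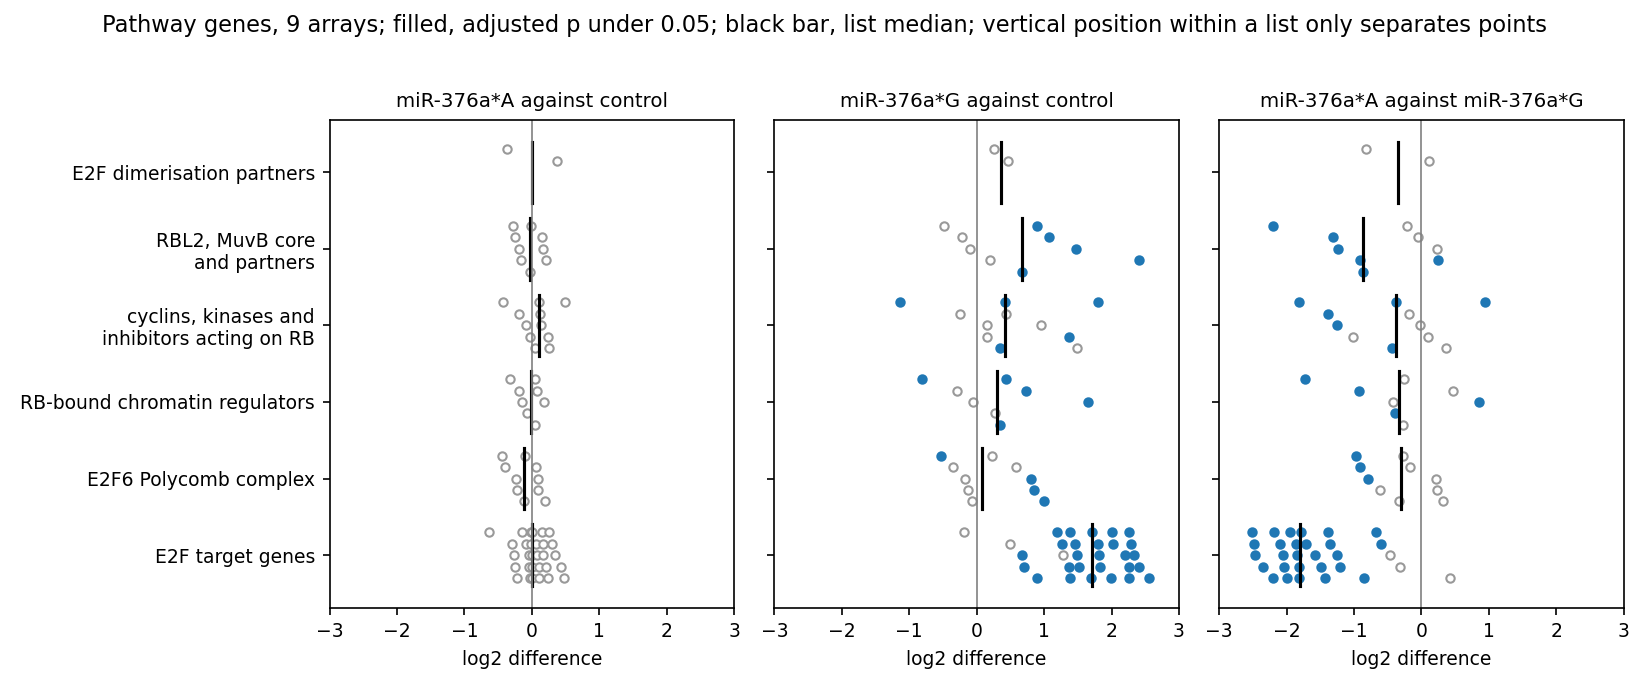
Log2 difference (horizontal axis) of each tested pathway gene by list in the 3 comparisons, 9 arrays; filled points have an adjusted p under 0.05 and black bars are list medians. The E2F targets have medians of 1.70 with miR-376a*G against control and -1.80 with miR-376a*A against miR-376a*G, and no gene is called with miR-376a*A against control.

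The genes most like each member over the 9 arrays are given as a description. The arrays of a group share their treatment, and 9 points of this kind allow high values for many genes. By Pearson's r on log2 values, HMGB3 (0.997) and TIMM50 (0.997) were nearest to E2F2, DENND11 (0.997) and CHAF1B (0.995), a chromatin assembly subunit, to E2F8, and ASNS (0.994) and PRC1 (0.993), a midzone protein of dividing cells, to RBL1. SPATA20 (0.994) and CREBRF (0.992) were nearest to RB1. For E2F1 and E2F3 the nearest genes were SYT15 (0.972) and ZBED5-AS1 (0.970), and ZNF106 (0.977) and EPHA4 (0.977). For E2F4 they were KCNK17 (0.969) and LYG1 (0.967), for E2F5 PLEKHH1 (0.993) and RND3 (0.992), for E2F6 YARS1 (0.991) and VPS41 (0.991), and for E2F7 BSDC1 (0.991) and MFAP1 (0.988).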

How the data were processed

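Per the labels' protocols, total RNA was extracted with Trizol, spiked with poly-A controls and labelled with biotin-ULS. The authors deposited 1 linear intensity per probe set for 54675 probe sets and 9 arrays, and the submitters' processing notes name GCOS 1.4.0.036 without a summarisation method. The deposited intensities had a mean near 100 on every array after trimming 2% at each end, so differences are relative to the rest of the array. Symbols came from the platform's probe table, and 11777 unlisted probe sets and 1801 with several genes were left out.

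Values were tested as log2(signal + 1), which understates changes of dim genes. Each gene was read by its brightest probe set. All 9 arrays entered 1 model in limma 3.58.1 under R 4.3.3 (lmFit and eBayes with intensity trend, 1 coefficient per group, 6 residual degrees of freedom). A call is a two-sided Benjamini-Hochberg adjusted p under 0.05 over all tested rows. The steps were tested on simulated data. The number of arrays limits the precision.

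The members, lists, named genes and alternatives were chosen with earlier results of these data known, and the E2F words after the promoters were seen. Named genes are all members, the 4 genes of each list with the smallest p between miR-376a*G and control, untested list genes, the 2 genes most like each member, and CDKN2A and MTAP; a few further list genes were named after their values were seen. Some list entries are not reported here.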

Additional observations from a re-analysis of the deposited data

How the results depend on the processing

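Of 20 alternative settings each, E2F1, E2F2, E2F8, RB1 and RBL1 kept their call and direction in all 20 in miR-376a*G against control and in miR-376a*A against miR-376a*G, where RB1 ran from 0.44 to 1.35. E2F3 was called in 14 of 20 in miR-376a*G against control, at 0.49 to 1.12. In that comparison E2F4 was called in 1 of 20, E2F6 in 2 of 20 and E2F7 in 3 of 20. Members called in miR-376a*A against control numbered 0, against 5 with array weights (0.154 and 0.165 for the 2 arrays that stand apart) and 6 without those arrays. Their probe sets called numbered 0, against 7 and 8. Over all 12587 tested genes the calls numbered 0, against 5513 and 5268. Members called in miR-376a*A against miR-376a*G numbered 5, against 9 with scaling to hybridisation controls. The cause was not tested. Leaving out 1 array gave 0 members in miR-376a*A against control, 5 to 7 in miR-376a*G against control and 5 to 7 in miR-376a*A against miR-376a*G. Over all 12587 tested genes the calls then numbered 0, 2994 to 4952 and 3497 to 5602, in the same order. E2F target counts ran from 25 to 29 in miR-376a*G against control.

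Calls over all genes in miR-376a*G against control were 2268 higher and 1937 lower, against 1068 and 2595 with median centring, 5592 and 946 with hybridisation controls and 4569 and 1142 with poly-A controls; the median of all genes was 0.12, -0.12, 0.51 and 0.40. In miR-376a*A against miR-376a*G they were 2065 higher and 2739 lower, against 2965 and 1262, 677 and 8205, and 1412 and 3811, in the same order. Array weights gave 5513, 7865 and 7866 called genes in miR-376a*A against control, miR-376a*G against control and miR-376a*A against miR-376a*G, and 7 arrays gave 5268, 7066 and 7508.

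Deviations of same-numbered arrays correlated at -0.881 to 0.0457 over 9 pairs, 0 of them over 0.1. Between miR-376a*A and control they correlated at -0.881, -0.606 and -0.556 for replicates 1, 2 and 3. Each of these groups holds an array that stands apart and resembles the other label. The check therefore cannot decide whether replicate numbers pair the samples. With the replicate block, members called numbered 0 in miR-376a*A against control, 5 in miR-376a*G against control and 5 in miR-376a*A against miR-376a*G. Without it they numbered 0, 6 and 5 in the same order. Over all 12587 tested genes, 0, 2936 and 3453 were called with the block, against 0, 4205 and 4804 without it. Probe sets of the members called numbered 0, 9 and 10 with the block, against 0, 11 and 11 without it. The share of all probe sets called with the block is not given here. E2F3 in miR-376a*G against control had a limma adjusted p of 0.0556 with the block.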
